A study of Mus musculus with 2 samples.

Results

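Numbered Zfp genes that lie alone in the mouse genome were examined for SRCAP at their promoters. These isolated Zfp genes were the protein-coding genes of GENCODE mouse release 21 (mm10) whose symbol is Zfp followed by digits only, without Zfp42, and with no transcription start site (TSS) of another such gene within 100 kb. Of 21938 nuclear protein-coding genes, 158 met the rule and 206 further Zfp genes had a neighbour of their kind nearer than that. A gene was counted as carrying an SRCAP peak in a replicate if a peak of that replicate overlapped a window around any of its TSSs that began 1000 bp before the site and ended 500 bp after it. The 158 genes were spread over all 19 autosomes and the X chromosome, with 18 on chromosome 7, 17 on chromosome 4 and 14 each on chromosomes 2 and 8.

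CUT&Tag of SRCAP was done in SYAT cells, a CGR8 mouse embryonic stem cell line in which both alleles of the endogenous gene encode SRCAP carrying YPet, a fluorescent tag, together with an auxin-inducible degron (AID), and which stably expresses the plant receptor OsTir1. An antibody to GFP, which also binds YPet, directed the transposase to the tagged protein in 200000 cells per sample, with 10000 Drosophila nuclei added as a spike-in. Both samples were of 1 group, cells moved from medium with kinase inhibitors to serum and LIF medium before the experiment, without auxin and with auxinole, an inhibitor that limits basal degradation of SRCAP, at 200 nM in the labels and at a higher, micromolar concentration in the study's methods, so every value below comes from tagged, OsTir1-expressing cells and no group was compared with another. The lists held 6158 peaks in replicate 1 and 12958 in replicate 2, and gave no read numbers, so the depth behind each list is unknown. The labels call these 2 samples duplicates, and the study states for its experiments in general that replicates were cultured independently. Libraries from untagged or auxin-treated cells were not analysed here.

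SRCAP is the catalytic subunit of a remodelling complex that replaces H2A by the histone variant H2A.Z in nucleosomes, mostly at promoters and enhancers. Zinc finger proteins of the C2H2 type form the largest family of DNA-binding proteins in mammals, and a chain of fingers reads a stretch of DNA a few bases per finger. Many carry a KRAB box, which recruits the corepressor Trim28 and, with it, the H3K9 methyltransferase Setdb1, and in embryonic stem cells some of these proteins silence retroelements and keep imprints. KRAB zinc finger genes mostly arose by local duplication and stand in large clusters, whereas single Zfp genes include many old, conserved regulators with other roles.

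The DNA under peaks found in both replicates is shown for 7 members with the highest scores or with known roles, chosen after the letters had been seen so that sites with and without searched motifs are represented. Each stretch lies within the bases shared by both replicates' peaks, outside annotated exons, and is written 5′ to 3′ on the gene's strand (mm10, GRCm38 sequence). Capitals mark CCAAT, the letters bound by NF-Y, or CCGGAAG, letters bound by ETS factors, in either orientation. Such stretches at Zfp40, Zfp706, Zfp958, Zfp41, Zfp691 and Zfp638 held no searched motif and are not shown. The 7 shown therefore overstate how often these stretches held a motif. Zfp619, the member with the highest lower score of the replicates, is represented by the intronic stretch 99 to 228 bp downstream of its TSS at chr7:39517865-39517994 on the plus strand, which holds neither motif and has 72.3% GC.
Zfp619: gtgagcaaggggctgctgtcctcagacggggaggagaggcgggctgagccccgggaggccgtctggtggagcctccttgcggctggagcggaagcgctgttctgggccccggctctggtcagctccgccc
The stretch for Zfp788 runs from 200 to 1 bp upstream of its TSS at chr7:41633003-41633202 on the plus strand.
Zfp788: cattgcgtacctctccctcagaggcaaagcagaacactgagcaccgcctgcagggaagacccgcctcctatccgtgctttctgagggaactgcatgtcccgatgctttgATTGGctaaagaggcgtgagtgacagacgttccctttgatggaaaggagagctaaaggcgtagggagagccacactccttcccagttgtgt
The stretch for Zfp932 runs from 122 to 1 bp upstream of its TSS at chr5:109996399-109996520 on the plus strand.
Zfp932: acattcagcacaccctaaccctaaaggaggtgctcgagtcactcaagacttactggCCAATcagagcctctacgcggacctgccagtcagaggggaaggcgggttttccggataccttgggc
The stretch for Zfp143 runs from 155 to 1 bp upstream of a TSS at chr7:110061555-110061709 on the plus strand. It lies inside the span of a longer Zfp143 transcript and overlaps that of 1600010M07Rik.
Zfp143: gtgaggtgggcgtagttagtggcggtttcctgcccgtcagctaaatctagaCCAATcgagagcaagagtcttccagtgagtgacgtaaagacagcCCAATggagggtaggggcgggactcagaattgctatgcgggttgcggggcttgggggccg
The stretch for Zfp687 runs from 176 to 43 bp upstream of its TSS at chr3:95015491-95015624 on the minus strand and holds CCAAT 3 times.
Zfp687: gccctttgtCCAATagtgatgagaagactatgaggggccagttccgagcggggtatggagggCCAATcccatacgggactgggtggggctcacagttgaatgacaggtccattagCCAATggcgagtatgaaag
The stretches for Zfp277 (chr12:40445359-40445558, minus strand) and Zfp808 (chr13:62130029-62130148, plus strand) are intronic and each hold CCGGAAG or its reverse complement.
Zfp277: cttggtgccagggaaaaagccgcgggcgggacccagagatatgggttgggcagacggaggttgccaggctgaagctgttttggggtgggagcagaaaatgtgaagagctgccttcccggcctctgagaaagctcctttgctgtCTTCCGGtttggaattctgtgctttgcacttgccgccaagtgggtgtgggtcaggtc
Zfp808: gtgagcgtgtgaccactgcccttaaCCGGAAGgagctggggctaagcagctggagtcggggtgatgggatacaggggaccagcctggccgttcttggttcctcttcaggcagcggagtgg

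To ask how often isolated Zfp promoters carried SRCAP, members with a peak were counted in each replicate and set beside all coding genes. In replicate 1, 41 of 158 members (25.9%, 95% Wilson interval 19.7 to 33.3%) carried a promoter peak, against 15.7% of all coding genes. In replicate 2 there were 69 members (43.7%, 36.2 to 51.5%), against 30.4% of all coding genes. Both replicates had a peak at 32 members (20.3%, 14.7 to 27.2%), against 12% of all coding genes. The share was higher among the members than among coding genes in each list, while the number of members differed widely between the lists, with a mean of 55 ± 19.8 (SD, n = 2). A further 9 members carried a peak in replicate 1 only, 37 in replicate 2 only, and 80 in neither. Intervals cover counting error only, and no test was run because the genes were chosen with earlier results of these data known and members are not replicates of a condition.

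**Figure D1:**
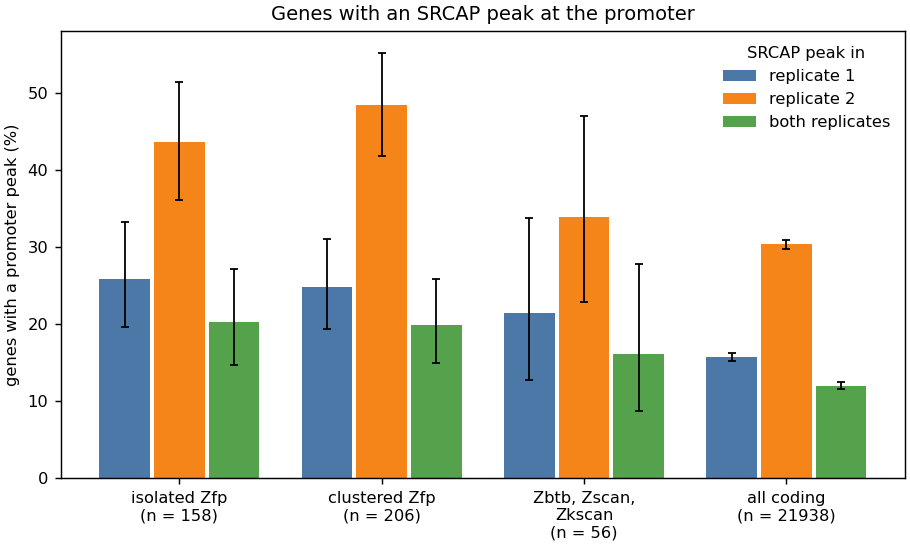
Share of genes with an SRCAP promoter peak (%) in replicate 1, replicate 2 and both, for isolated Zfp genes, clustered Zfp genes, the Zbtb, Zscan and Zkscan genes, and all coding genes. Bars are shares and error bars 95% Wilson intervals, and the isolated genes stand at 25.9, 43.7 and 20.3% beside 15.7, 30.4 and 12% of coding genes.

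The coding background contains many olfactory and vomeronasal receptor genes, which are silent in most tissues. Leaving out genes whose symbols begin with Olfr or Vmn raised the background to 16.8% in replicate 1, 32.5% in replicate 2 and 12.9% in both, still under the members' shares. Clustered Zfp genes carried peaks about as often as isolated ones, with 24.8% in replicate 1, 48.5% in replicate 2 and 19.9% in both. Their intervals (19.4 to 31.1%, 41.8 to 55.3% and 15.0 to 25.9%) contained the isolated members' shares. The 56 Zbtb, Zscan and Zkscan genes, further C2H2 families with BTB, SCAN or KRAB domains, had 21.4% in replicate 1, 33.9% in replicate 2 and 16.1% in both.

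Isolation was checked against other zinc finger genes, since the rule looks at numbered Zfp symbols only. Of the members, 22 had another gene encoding at least 3 C2H2 fingers within 100 kb, most of them genes with Gm, Zkscan or Zscan names. No member had more than 3 such genes. Zfp932, a silencer of endogenous retroviruses, was one of these, with its sister gene Gm15446 among 3 such neighbours. The median distance to the nearest other numbered Zfp gene was 1760 kb. Just inside the limit stood Zfp605 and Zfp932, 103 kb from each other, of which Zfp605 scored 45 in replicate 2 only, and just outside it stood Zfp263, 99.4 kb from Zfp174, which scored 47 in replicate 2 only. Of the 22 members with such a neighbour, 6 carried a peak in replicate 1 (27.3%), 7 did in replicate 2 (31.8%), and 4 did in both (18.2%). Of the other 136, the counts were 35 (25.7%), 62 (45.6%) and 28 (20.6%). Beside 15.7%, 30.4% and 12% of all coding genes, the share of the 22 in replicate 2 was close to the background.

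Peaks were compared by the score that the peak caller assigned, at least 13 in both lists. This score is read here as a measure of significance, not of peak height or of the amount of SRCAP. A member's score is that of its strongest promoter peak, meaning the one with the highest score. Members with a peak had a median score of 39 in replicate 1 (n = 41, 13 to 123) and of 51 in replicate 2 (n = 69, 13 to 152), against 36 and 44 for coding genes with a promoter peak. Scores of at least 50 were reached by 11 of 41 members in replicate 1 (26.8%, against 26.8% of coding genes with a peak) and by 37 of 69 in replicate 2 (53.6%, against 43.0%). Isolated Zfp promoters therefore carried peaks with scores close to those of other genes in replicate 1 and somewhat above them in replicate 2. The highest member scores exceeded those of 97.7% (Zfp367, replicate 1) and 97.8% (Zfp277, replicate 2) of coding genes with a peak, though the few highest coding genes reached 4910 in replicate 1 and 6452 in replicate 2.

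Zfp619, which encodes a KRAB protein with 33 fingers, had peaks of 117 in replicate 1 (chr7:39517631-39517994) and 128 in replicate 2 (chr7:39517682-39518091). These scores exceeded those of 97.3% and 95.6% of coding genes with a promoter peak in the same list. Zfp277, a protein with 3 matching fingers that has been linked to Polycomb repression of the Ink4a locus, scored 96 in replicate 1 and 152 in replicate 2 (chr12:40445359-40446034 and chr12:40445354-40446003), the latter the highest score of any member. Zfp367 had the highest score of replicate 1 at 123 (chr13:64153267-64153609) and 77 in replicate 2 (chr13:64153267-64153915). Zfp40 followed with 68 and 119. These were the 4 members above 60 in both replicates.

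The next members by the lower of their scores included 3 KRAB genes. Zfp788 scored 57 and 88, Zfp958 scored 48 and 69, and Zfp90 scored 51 and 47. Zfp706, whose small protein matched 1 finger and which is known to promote exit from self-renewal in embryonic stem cells, scored 51 and 80. Zfp691 scored 53 and 43, and Zfp41 scored 46 and 67. Zfp932 scored 44 and 50, and Zfp808 scored 46 and 43, and both of these promoters hold much repeated sequence, described below. All 12 of these members had scores above the median for coding genes in replicate 1, which follows from their choice by the lower score. Zfp808 and Zfp691 fell just under the median of 44 in replicate 2.

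Where both replicates had a peak, the places were the same but the order of the scores was not. For all 32 members with a peak in both, the strongest peaks of the replicates overlapped, by a median of 303 bp, against 94.5% of coding genes with a peak in both. Replicate 2 gave the higher score at 26 of the 32 members and at 1995 of the 2643 coding genes, and as the depth of the lists is unknown this is a description only. Ranks of the scores were related only loosely across these genes (Spearman's rho = 0.32, Pearson's r of log10 scores = 0.31, n = 32 genes that share 2 libraries and are not independent replicates), beside 0.4 and 0.47 for those coding genes. Zfp438 had 13 in replicate 1 and 130 in replicate 2. Zfp936 (29 and 103), Zfp638 (40 and 118) and Zfp950 (41 and 98) were also far apart, whereas Zfp644 scored 29 and 22 and Zfp664 scored 29 and 32.

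**Figure D2:**
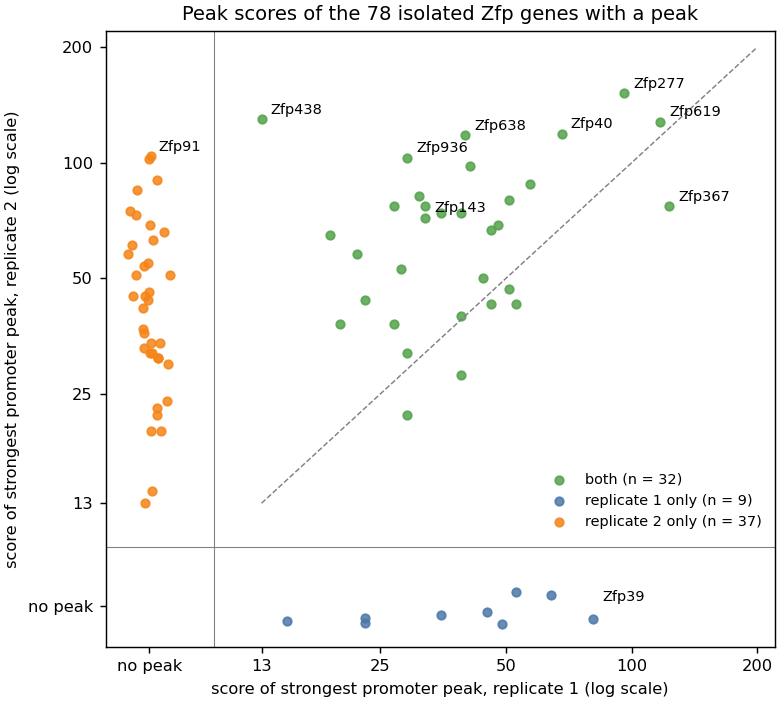
Score of the strongest promoter peak in replicate 1 (x axis, log scale) against replicate 2 (y axis, log scale) for the 78 members with a peak, with members lacking a peak in 1 replicate placed in the strips marked no peak. The dashed line marks equal scores, and 26 of the 32 members with both peaks lie above it.

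Peaks found in 1 replicate alone included high scores. The 9 members of replicate 1 alone had a median score of 45, beside 29 for such coding genes, and were led by the KRAB genes Zfp39 at 81 and Zfp157 at 64 and by Zfp526 at 53. The 37 of replicate 2 alone had a median of 44, beside 37 for such coding genes. They were led by Zfp91, a ubiquitin ligase of noncanonical NF-κB signalling, at 104, and by the KRAB genes Zfp1 at 102 and Zfp386 at 90. Thus members with sizeable scores in one list could be missing from the other. Of members with a peak in replicate 1, 78% also had one in replicate 2 (coding genes 76.7%), and of those with a peak in replicate 2, 46.4% also had one in replicate 1 (39.7%).

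Peaks sat close to the TSS. The midpoint of a member's strongest peak lay a median of 31 bp downstream of the nearest TSS in replicate 1 and 5 bp downstream in replicate 2, against -10 and -8 bp, just upstream, for coding genes. It lay within 250 bp of a TSS for 36 of 41 members (87.8%) in replicate 1 and 58 of 69 (84.1%) in replicate 2, against 73.8% and 74.0% of coding genes. A TSS was covered by a peak at 28 of 41 members (68.3%, coding genes 62.0%) in replicate 1 and at 55 of 69 (79.7%, 67.8%) in replicate 2. Members have more annotated TSSs than coding genes (median 4 against 3), which shortens the distance to the nearest one, and the part of this in the difference was not tested. Zfp384 stood farthest from its nearest TSS among members with both peaks, with midpoints 483 and 518 bp downstream. Zfp687 and Zfp367 carried their peaks upstream, with midpoints at -314 and -437 bp for Zfp687 and at -236 and -389 bp for Zfp367. Widths were ordinary, with medians of 364 bp in replicate 1 and 435 bp in replicate 2 beside 356 and 421 bp for coding genes.

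**Figure D3:**
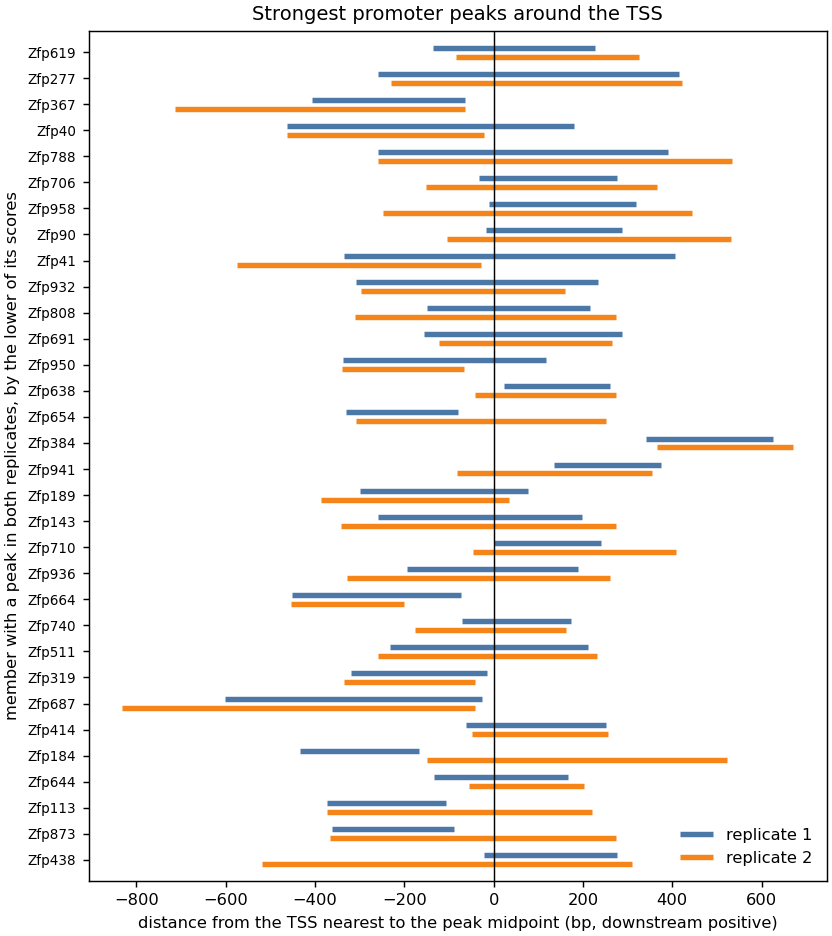
Extent of the strongest promoter peak of each of the 32 members with a peak in both replicates, in bp from the TSS nearest to the peak's midpoint (downstream positive). Members are ordered from top to bottom by the lower of their scores. The nearest TSS can differ between the replicates, so a member's bars can lie apart, as at Zfp184 (-301 and 186 bp). On the genome the peaks of both replicates overlap in all 32.

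By protein type, the members were a mixed set. A C2H2 pattern was matched at least 3 times in 129 of the 158 proteins and not at all in 11, with a median of 9 fingers and a maximum of 36. A KRAB pattern was matched in 32 members (20.3%), against 128 of 206 clustered Zfp genes (62.1%) and 216 of all coding genes (0.985%). The pattern is strict and missed Zfp932 and Zfp57, which are known as KRAB proteins. Of the 32 KRAB members, 10 carried a peak in replicate 1 (31.2%, 18 to 48.6%), 18 did in replicate 2 (56.2%, 39.3 to 71.8%), and 8 did in both (25%, 13.3 to 42.1%). Of the 97 members with at least 3 fingers and no KRAB match, the counts were 26 (26.8%), 40 (41.2%) and 19 (19.6%). Of the 29 with fewer fingers, they were 5 (17.2%), 11 (37.9%) and 5 (17.2%), beside 15.7%, 30.4% and 12% of all coding genes. The intervals of these 3 classes of members overlapped in each list. All coding genes with the KRAB pattern, members included, had 21.8%, 41.7% and 16.2%, clustered Zfp genes with it had 24.2%, 48.4% and 18.8%, and coding genes with at least 3 fingers and no KRAB match had 23.2%, 38.1% and 17.8%. The KRAB members' intervals contained all of the KRAB shares among these.

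The KRAB members with a peak in both replicates were Zfp619, Zfp788, Zfp958, Zfp90, Zfp941 (35 and 74), Zfp936, Zfp184 (22 and 58) and Zfp113 (20 and 38). The KRAB members without a peak in either list were Zfp169, Zfp616, Zfp661, Zfp715, Zfp735, Zfp867, Zfp949, Zfp980, Zfp986, Zfp989, Zfp990 and Zfp991. The members with fewer than 3 matching fingers that had peaks in both were Zfp367, Zfp706, Zfp638, Zfp740 (39 and 28) and Zfp414 (23 and 44). Genes in this class without a peak included Zfp36, which encodes the mRNA decay factor tristetraprolin with fingers of the CCCH type, and Zfp703 and Zfp503, which encode corepressors of the NET family.

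Members with known roles were followed through a panel of 24 genes, of which 7 had a peak in replicate 1 and 7 in replicate 2, with 5 in both lists. All coding genes had 15.7%, 30.4% and 12%, so the panel's share in replicate 2 was close to the background. Zfp143, an activator that binds a large number of promoters, scored 32 in replicate 1 (chr7:110061452-110061907) and 72 in replicate 2 (chr7:110061368-110061984). Zfp687, a partner of Zfp592 and Zmynd8 in a transcriptional complex, scored 27 and 77 (chr3:95015476-95016049 and chr3:95015491-95016279). Its partner gene Zfp592 had no peak. Zfp638, which silences unintegrated retroviral DNA with the HUSH complex, scored 40 and 118. Zfp644, which recruits the H3K9 methyltransferases G9a and GLP, scored 29 and 22, and Zfp384, which binds runs of A and T, scored 39 and 40. Zfp638 and Zfp384 were the members with a second promoter peak in replicate 2.

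In 4 panel genes the replicates differed. Zfp281, a regulator of pluripotency, scored 49 in replicate 1 alone, and Zfp536, a repressor of neuronal differentiation, scored 15 in replicate 1 alone. Zfp106, an RNA-binding protein needed in motor neurons, scored 66 and Zfp521, a developmental regulator of blood, neural and adipose lineages, scored 46 in replicate 2 alone. The remaining 15 had no promoter peak in either list. Among them were Zfp57, which protects methylated imprints, Zfp462 and Zfp217, which act with chromatin repressors, Zfp207, a spindle and splicing protein, Zfp609, which works with Nipbl, Zfp296, a partner of Klf4 in reprogramming, and Zfp335, Zfp148, Zfp516 and Zfp827. Of these 15, Zfp423, a regulator of adipocyte and cerebellar development, had 2 peaks in replicate 1 and 3 in replicate 2 within its gene body, and Zfp462 had 1 and 2.

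Peaks inside the gene body but outside the promoter windows were found at 7 members in replicate 1 (4.43%, against 5.55% of coding genes) and 22 in replicate 2 (13.9%, against 10.8%). The members' share in gene bodies thus lay near that of coding genes, slightly under it in replicate 1 and slightly above it in replicate 2. No adjustment was made for gene length. Of the 80 members without a promoter peak, 2 had a peak within 5 kb of a TSS in replicate 1 and 4 in replicate 2. The median distance to the nearest peak was 115 kb in replicate 1 and 44.7 kb in replicate 2, and at 43 and 22 of these members it exceeded 100 kb.

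Promoter composition divided the members differently from other genes. A promoter was called CpG-rich if its promoter window had at least 55% GC and a CpG ratio, observed over expected, of at least 0.6. At their first TSS, 42 members (26.6%) were CpG-rich, against 23.2% of coding genes and 7.28% of clustered Zfp genes, and none of the 32 KRAB members was. Of the CpG-rich members, 10 carried a peak in replicate 1 (23.8%, coding genes 26.3%), 13 did in replicate 2 (31%, 48.6%), and 9 did in both (21.4%, 21.5%). Of the 116 others, 31 did in replicate 1 (26.7%, coding genes 12.5%), 56 in replicate 2 (48.3%, 24.9%) and 23 in both (19.8%, 9.18%). The members' excess over coding genes was therefore at promoters that were not CpG-rich, in both lists.

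Since a peak could be at any TSS of a gene, the split was repeated with every TSS. Of the 63 members that were CpG-rich at some TSS, 28.6% carried a peak in replicate 1, 44.4% did in replicate 2, and 23.8% did in both, against 26%, 48.6% and 21.1% of such coding genes. Of the 95 members that were CpG-rich at none, 23 (24.2%) carried a peak in replicate 1, 41 (43.2%) did in replicate 2, and 17 (17.9%) did in both. Coding genes of that kind had 10.8%, 21.7% and 7.74%, and 12%, 24% and 8.56% after Olfr and Vmn genes were left out. On this split the CpG-rich members had shares close to those of coding genes, and the others again had higher ones. Zfp619, Zfp40, Zfp788, Zfp958, Zfp90 and Zfp691, all among the 12 highest, had no CpG-rich TSS, whereas Zfp277, Zfp367, Zfp706 and Zfp41 did.

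**Figure D4:**
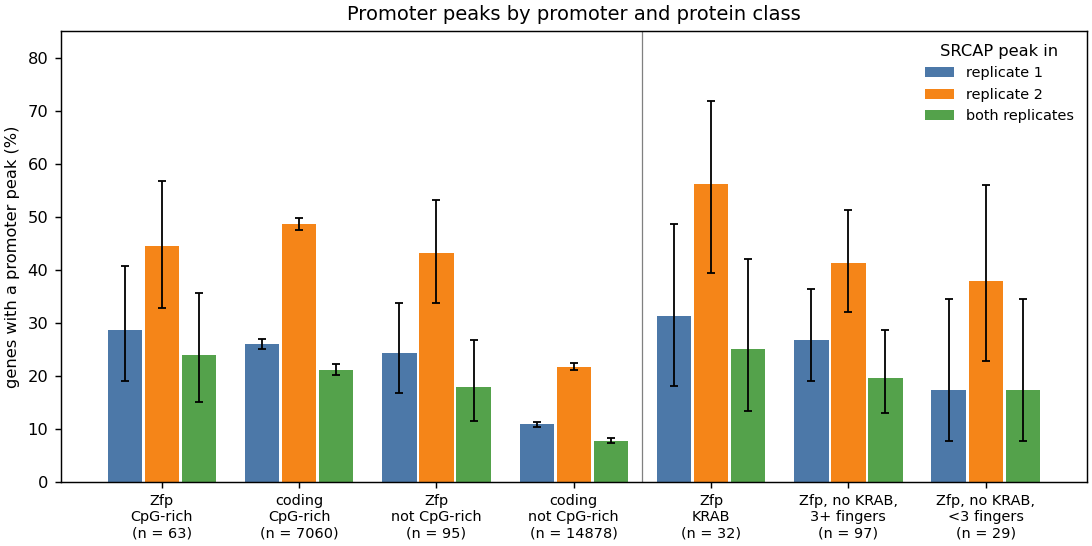
Share of genes with an SRCAP promoter peak (%) in replicate 1, replicate 2 and both, with 95% Wilson intervals, for members (Zfp) and all coding genes with and without a CpG-rich TSS, and for members by protein class. Members without a CpG-rich TSS stand at 24.2, 43.2 and 17.9%, beside 10.8, 21.7 and 7.74% of such coding genes.

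More TSSs give a gene more window, so members were also split by their number of TSSs. Among genes with at least 5 TSSs, 24 of 65 members (36.9%) carried a peak in replicate 1, 37 (56.9%) did in replicate 2, and 19 (29.2%) did in both, against 23.6%, 45.9% and 18.7% of coding genes. Among genes with 2 to 4 TSSs, 12 of 74 members (16.2%), 28 (37.8%) and 11 (14.9%) did, against 13.8%, 26% and 10.5%. Among genes with 1 TSS, 5 of 19 members (26.3%), 4 (21.1%) and 2 (10.5%) did, against 6.62%, 13.6% and 4.36%. The members' shares lay above those of coding genes in every class, with few genes in the last. Several of the members' Wilson intervals nevertheless contained the coding share. With 2 to 4 TSSs this held in replicate 1 (9.53 to 26.2%) and in both (8.51 to 24.7%). With 1 TSS it held in replicate 2 (8.51 to 43.3%) and in both (2.94 to 31.4%). With at least 5 TSSs it held in replicate 2 (44.8 to 68.2%).

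Some peaks could belong to a neighbour. Another coding gene had a TSS in the promoter window of 22 members, and of these 8 carried a peak in replicate 1 (36.4%, coding genes 27.6%), 15 did in replicate 2 (68.2%, 50.5%), and 7 did in both (31.8%, 23.0%). The strongest peak lay in the neighbour's own promoter window as well at 8 of 8 in replicate 1 and 12 of 15 in replicate 2. Of these, 4 were nearer to the member's TSS and 4 to the neighbour's in replicate 1, and 5 and 7 in replicate 2. The pairs with peaks in both were Zfp277 with Dock4, Zfp654 with Cggbp1, Zfp189 with Mrpl50, Zfp664 with Ccdc92, Zfp511 with Tubgcp2, Zfp740 with Csad and Zfp319 with Usb1. Zfp91, with the highest score of replicate 2 alone, shared its window with Lpxn, and Zfp526 shared its own with Dedd2. Genes not annotated as coding were not counted here. The first base shared by both replicates' peaks lies within Gm47513 at Zfp367, within Gm26786 at Zfp90 and within 4930557K07Rik at Zfp384. The stretch shown for Zfp143 overlaps 1600010M07Rik. Whether whole peaks lie within these genes was not checked. Of the 136 members with no other coding TSS in the window, 33 (24.3%) carried a peak in replicate 1, 54 (39.7%) did in replicate 2, and 25 (18.4%) did in both, against 13.8%, 27.1% and 10.3% of such coding genes.

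Short motifs were searched on both strands in the 250 bp before and the 50 bp after the first TSS, and none of the motifs contains another. CCAAT was found at 67 members (42.4%), against 39.1% of all coding genes. It was found at 20 of the 32 members with a peak in both replicates (62.5%) and at 26 of the 80 with none (32.5%), and among coding genes at 45.6% and 37.7%. CCGGAAG was found at 33 members (20.9%, coding genes 10.8%), at 6 of those with a peak in both (18.8%, coding genes 16.6%) and at 19 of those with none (23.8%, 8.02%). Without members whose promoter window is over 50% repeated in the assembly (described below), CCAAT was at 18 of 30 members with a peak in both (60%) and 15 of 67 with none (22.4%), and CCGGAAG at 6 of 30 (20%) and 13 of 67 (19.4%). CCAAT thus was more frequent at members with peaks in both replicates than at those with none, also among the less repeated promoters, and no such difference was seen for CCGGAAG there. Members with a peak in replicate 2 only held CCAAT about as often as those with none. Most of the few with a peak in replicate 1 only held it. The remaining motifs were rare: AAGATGGCG, of YY1, was at 3.8% of members (coding genes 1.71%), GCGCATGC, of NRF1, at 3.16% (3.72%), TCTCGCGA at 3.16% (1.38%) and CTACAATTC, of Zfp143, at 1.27% (0.465%). A match is a description of letters and not of binding.

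The study's methods keep reads with a unique alignment, so repeated sequence at the members' promoters was measured, and its part in missing peaks was not tested. For each member, but not for other coding genes, the share of 31-base words in its first promoter window that also occur elsewhere in the assembly was counted. The median was 1.59% over all members, 0.92% for members with a peak in both replicates and 2.04% for those with none. More than 50% was repeated at 16 members, of which 13 had no peak, 2 had peaks in both (Zfp808 at 70.5% and Zfp932 at 52.0%) and 1 had a peak in replicate 2 only (Zfp970 at 91.3%). At 5 members, Zfp781, Zfp966, Zfp967, Zfp969 and Zfp973, every such word occurred elsewhere, and none of these had a peak. Without the 16 members, 39 of 142 (27.5%) carried a peak in replicate 1, 66 (46.5%) did in replicate 2, and 30 (21.1%) did in both, beside 15.7%, 30.4% and 12% of all coding genes, which were not filtered for repeats. Of the 80 members without a peak, 67 had at most 50% repeated words.

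**Figure D5:**
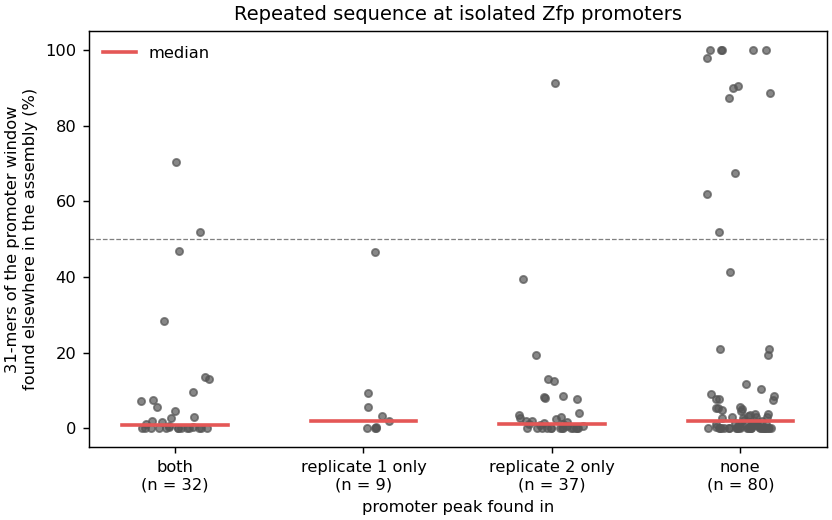
Share of 31-base words of each member's first promoter window that occur elsewhere in the assembly (%), by where a promoter peak was found; points are members, red lines medians, and the dashed line marks 50%. Of the 16 members above the line, 13 had no peak in either replicate.

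By chromosome, members were few and the counts are given as a description. On chromosome 7, 9 of 18 members had a peak in replicate 1 and 9 in replicate 2, with 7 in both lists, beside 12.5%, 23.9% and 9.44% of coding genes there. On chromosome 15, 3 of 5 members had a peak in each list, beside 14% and 31% of coding genes. On chromosome 2, none of 14 members had a peak in replicate 1 and 5 had one in replicate 2, beside 13.3% and 26.2%, and on chromosome 9 these counts were 0 and 3 of 7, beside 17.7% and 33%. On chromosome 4, 3 of 17 had a peak in replicate 1 and 2 in replicate 2, beside 15% and 30.2%. On chromosome 8, where coding genes more often carried a peak (26.5% and 41.4%), 3 and 7 of 14 members did.

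Genes that work with KRAB zinc finger proteins were read in the same way. Of a list of 12, 6 had a peak in replicate 1 and 6 in replicate 2, with 5 in both lists, beside 15.7%, 30.4% and 12% of all coding genes. Cbx3, which encodes the heterochromatin protein HP1γ, scored 81 and 152, Atf7ip, a partner of Setdb1, scored 43 and 70, and Smarcad1, a remodeller that binds Trim28, scored 41 and 47. Cbx5 scored 30 and 74, and Dnmt1, the maintenance DNA methyltransferase, scored 23 and 38. Trim28 itself scored 26 in replicate 1 alone and Trim33 scored 30 in replicate 2 alone, and Setdb1, Cbx1, Morc3, Trim24 and Uhrf1 had no peak. Of 7 embryonic stem cell genes, Zfp42, left out of the members by the rule, scored 23 and 64. Tfcp2l1, Sox2 and Pou5f1 scored 60, 49 and 29 in replicate 2 alone, and Nanog, Esrrb and Klf4 had no promoter peak. Peak lists hold no expression, so they do not check the labelled cell type.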

How the data were processed

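Both samples were CUT&Tag libraries of SYAT cells. Per the labels, reads were processed with STAR, Picard and MACS2 on mm10. The authors deposited 1 peak list per sample with coordinates and a score, a whole number of at least 13, read here as 10 times the −log10 q-value. The study's methods describe, for ChIP-seq and CUT&Tag under 1 heading, unique alignment, removal of duplicates, downsampling by Drosophila reads and exclusion of ENCODE blacklisted regions, and its reporting form gives a MACS2 command with an input control in the ChIP-seq part. That control was not analysed here, its use for CUT&Tag is not stated, and the depth of these lists is unknown.

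Members and lists were chosen with earlier results of these data known. TSSs came from GENCODE mouse release 21, without the 13 mitochondrial genes. An overlap of 1 bp counted. Fingers and the KRAB box were matched in translated coding sequences (C, 2 to 4 residues, C, 12, H, 3 to 5, H; and F, any, D, V or L or I, 3 any, F, 3 any, E, W). The genes named were the 12 members with the highest lower score, the 3 highest of each replicate alone, the panel and genes sharing a window. Others were named after their values were seen. No test was run. On a simulated list, all 200 planted genes were recovered and 0 calls differed from bedtools. The tools were bedtools 2.31.1 and, in Python 3.11.15, pysam 0.24.0, pandas 2.3.3, numpy 2.4.6, matplotlib 3.10.9 and scipy 1.17.1.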

Additional observations from a re-analysis of the deposited data

How the results depend on the processing

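Over 15 alternatives, 41 of 45 member counts stayed within 1.5 times their main value, and in all 45 the members' share exceeded that of the coding genes, by 1.27 to 1.89 times. Requiring a peak to contain a TSS left 17 members in both replicates (10.8%, coding genes 6.97%). A score of at least 50 left 11 members in replicate 1 (6.96%, 4.21%), 37 in replicate 2 (23.4%, 13.1%) and 6 in both (3.8%, 2.99%); fewer peaks enter by construction. With each list held to 6158 peaks, 50 members (31.6%) had a peak in replicate 2, against 19.2% of coding genes. Leaving out each replicate in turn gave 41 to 69 members in place of the mean of 55. The alternatives on nearby genes with at least 3 fingers, on members with at least 3 fingers and on repeated sequence were added after the data had been seen, and all 3 left the coding genes unfiltered.

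No paired analysis was possible because there was 1 group. With unknown depth, a missing peak is not evidence that SRCAP was absent, and differences in score or peak number between the lists, and the order of members by the lower score, are descriptions of these lists.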
